A study of Zea mays with 12 samples.

Results

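In maize endosperm collected 16 days after pollination, 110 of 39448 gene models were higher in PbfRNAi endosperm than in each of the 3 other genotypes of the series, o2, PbfRNAi;o2 and wild type (WT). They were chosen by level alone. With 0.5 added to the mean FPKM of the 3 libraries of a genotype, the PbfRNAi value had to be at least 5 and at least 2 times the value of each other genotype, and all 3 PbfRNAi libraries had to lie above all 9 others. FPKM, the unit the authors deposited, counts sequenced fragments of a transcript relative to its length and to the mapped total of its library. Because the choice set PbfRNAi against every other genotype, the PbfRNAi levels of the 110 are a description with no test, and their tests are among o2, PbfRNAi;o2 and WT. PbfRNAi is tested against WT for other genes only, apart from totals over pathway lists, which include some members. The 110 models are 0.279% of all models. The same rule picked 51 models for o2 (0.129%), 270 for PbfRNAi;o2 (0.684%) and 13 for WT (0.033%).

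PbfRNAi kernels carry an RNA interference transgene against Pbf, o2 kernels a mutation of opaque2, PbfRNAi;o2 kernels both, and WT kernels neither. Each genotype has 3 biological replicates of field-grown material, 12 libraries in all. The sources used here do not give the promoter of the transgene, the number of transgenic events, the o2 allele, or whether the 4 lines share a genetic background, so loss of PBF and a difference of background cannot be told apart. What each replicate was taken from is not given either, and p-values measure the spread between these libraries. In bulk endosperm, fewer cells of a type and less RNA per cell cannot be told apart.

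PBF (prolamin-box binding factor) is a DOF zinc-finger transcription factor and O2 (opaque2) a bZIP transcription factor. Both act in the starchy endosperm, where they bind neighbouring elements in promoters of zein genes and interact with each other. Zeins are the storage proteins that fill protein bodies in the endoplasmic reticulum, and kernels short of either factor turn soft and opaque.

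The targeted genes were read first. The pbf1 level was 56.7, 44.1 and 39.1 FPKM in PbfRNAi, 242, 307 and 331 FPKM in o2, 64.8, 58.7 and 54.9 FPKM in PbfRNAi;o2, and 110, 102 and 97.6 FPKM in WT. All 6 libraries with the transgene lay below the 3 WT libraries. The o2 level was 119 ± 19.3 FPKM in PbfRNAi, 0.467 ± 0.268 FPKM in o2, 0.462 ± 0.297 FPKM in PbfRNAi;o2 and 204 ± 22.0 FPKM in WT (SD, n = 3 each). In all 4 genotypes the libraries numbered replicate 1 stood apart, with a correlation across genes of 0.955 to 0.970 to their own genotype, against 0.989 to 0.995 between replicates 2 and 3. None of the marker genes checked is among the 110. The summed FPKM of 19 starchy endosperm markers was 24831 to 35140 in PbfRNAi, 14637 to 16697 in o2, 5035 to 6666 in PbfRNAi;o2 and 40783 to 53965 in WT. That list includes o2 and pbf1 themselves and zein genes (z1C1 models and gz50). A lower sum or lower calls in it therefore cannot be read as fewer starchy endosperm cells. Its zein genes are counted again in the zein list below. For 9 basal transfer layer markers, 1 of them at 0 throughout, the sum was 32.6 to 118 in PbfRNAi, 218 to 365 in o2, 63.1 to 197 in PbfRNAi;o2 and 143 to 202 in WT. The 6 embryo markers summed to 332 to 635 in PbfRNAi, 360 to 409 in o2, 398 to 527 in PbfRNAi;o2 and 348 to 388 in WT. Of the tested genes in these lists, 7 of 18 starchy endosperm and 3 of 6 basal transfer layer markers were lower in PbfRNAi than in WT by limma (against 5.16% of all genes), and 2 of 4 embryo markers were higher (against 18.2%, and 0 of 4 after scaling). Their part in the levels of the 110 genes was not tested. Green tissue markers stayed at or under 0.902 FPKM in sum in every library. The 3 pericarp and maternal markers summed to 2.35 to 11.3 FPKM in PbfRNAi and 0.200 to 0.781 FPKM in o2. In PbfRNAi;o2 they summed to 5.16 to 37.9 FPKM, and in WT to 0.236 to 5.54 FPKM. Their part in the levels of the 110 genes was not tested either.

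The 110 genes ranged widely in abundance. Their mean level in PbfRNAi ran from 4.51 to 22835 FPKM, with a median of 12.1 FPKM and quartiles of 6.58 and 22.6 FPKM. The median of the members' means was 1.79 FPKM in o2, 2.09 FPKM in PbfRNAi;o2 and 1.89 FPKM in WT. Only 7 members reached 100 FPKM in PbfRNAi, and 48 stayed under 10 FPKM. Without the storage protein gene z1A2_1, the members summed to 2913, 2762 and 3133 FPKM in PbfRNAi, 664, 641 and 637 FPKM in o2, 681, 814 and 818 FPKM in PbfRNAi;o2, and 611, 660 and 667 FPKM in WT. The 9 libraries of the other 3 genotypes thus lay close together, and the PbfRNAi libraries far above them, as the rule requires.

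The second highest genotype was PbfRNAi;o2 for 49 members, o2 for 35 and WT for 26. The PbfRNAi level, with 0.5 added, was 2.03 to 63.3 times the next genotype, with a median of 2.91. Of the members, 56 lay under 3 times, 26 reached 5 times and 16 reached 10 times. The 3 members nearest the limit were GRMZM2G161019 at 2.03 and GRMZM2G117357 and GRMZM2G125527 at 2.04 times. Just outside it stood GRMZM2G045192 at 1.98 and AC234528.1_FG004 and GRMZM2G111304 at 1.97 times. Within PbfRNAi the highest library exceeded the lowest by a median of 1.39 times, and by over 2 times in 16 members. Replicate 1 was the highest PbfRNAi library in 43 members, the lowest in 50 and between the others in 17.

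**Figure D1:**
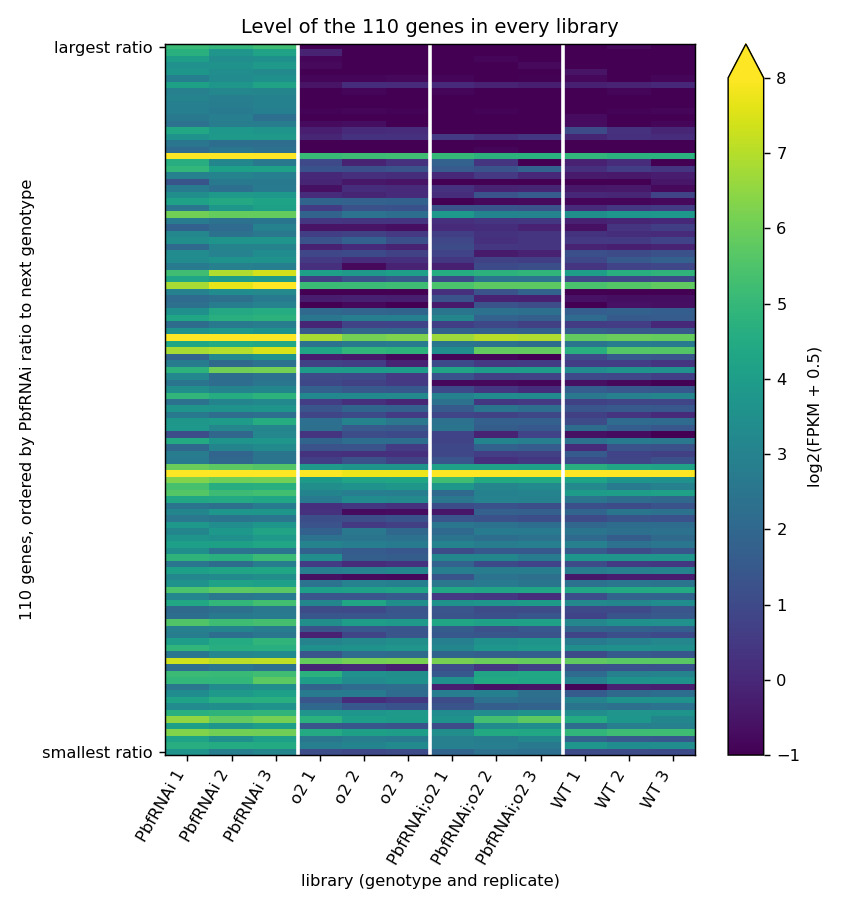
Level of the 110 genes (1 row each, ordered by the ratio of PbfRNAi to the next genotype) in the 12 libraries (columns), as log2(FPKM + 0.5). Colours stop at 8, so z1A2_1 is bright throughout. In the other rows the 3 PbfRNAi columns on the left are brighter than the 9 others, and the top rows are near the bottom of the scale in all 9 others.

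A reference table gave a name to 13 of the 110 genes. By far the most abundant was z1A2_1 (GRMZM2G008341), an alpha zein storage protein gene. It had 23510, 22673 and 22321 FPKM in PbfRNAi, 449, 217 and 220 FPKM in o2, 3788, 11813 and 10872 FPKM in PbfRNAi;o2, and 806, 1313 and 996 FPKM in WT. None of the 4 genotypes overlapped with another. The mean in PbfRNAi was 77.3 times that of o2, 2.59 times that of PbfRNAi;o2 and 22.0 times that of WT. With this gene the members made up 4.90% to 5.25% of the FPKM sum in PbfRNAi, 0.175% to 0.226% in o2, 0.905% to 2.48% in PbfRNAi;o2 and 0.300% to 0.449% in WT. Zein genes have near-identical copies that can share reads, which leaves each zein model's own level uncertain.

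Several named members encode enzymes of central or secondary metabolism. The gene pep4 (GRMZM2G473001) encodes a phosphoenolpyruvate carboxylase, which makes oxaloacetate from phosphoenolpyruvate and bicarbonate. Its level was 11.9, 14.1 and 14.1 FPKM in PbfRNAi, 0.479, 0.748 and 0.705 FPKM in o2, 0.934, 0.689 and 0.887 FPKM in PbfRNAi;o2, and 0.443, 0.652 and 0.612 FPKM in WT. All 9 libraries outside PbfRNAi stayed under 1 FPKM, and the PbfRNAi mean was 20.8, 16.0 and 23.5 times that of o2, PbfRNAi;o2 and WT in that order. AO1 (GRMZM2G141535), an aldehyde oxidase, belongs to a family that in Arabidopsis makes abscisic acid from its aldehyde. It had 3.72, 7.71 and 7.70 FPKM in PbfRNAi, 0.395, 0.568 and 0.431 FPKM in o2, 1.64, 0.853 and 0.808 FPKM in PbfRNAi;o2, and 0.433, 0.340 and 0.414 FPKM in WT. Replicate 1 was the lowest of the 3 PbfRNAi libraries and the highest of the 3 PbfRNAi;o2 libraries.

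The terpene synthase tps10 (GRMZM2G179092), which in maize leaves forms volatile sesquiterpenes after herbivore attack, had 20.3, 13.3 and 12.05 FPKM in PbfRNAi, 0.342, 0.589 and 0.605 FPKM in o2, and 1.60, 0.714 and 0.467 FPKM in WT, and was listed at 0 in all 3 PbfRNAi;o2 libraries. The glutathione transferase gst19 (GRMZM2G335618), of a family of detoxifying enzymes, had 4.22, 5.80 and 6.17 FPKM in PbfRNAi, 2.17, 2.10 and 2.19 FPKM in o2, 1.99, 1.77 and 2.14 FPKM in PbfRNAi;o2, and 1.27, 2.03 and 2.37 FPKM in WT. The other 3 genotypes overlapped. For ris2 (GRMZM2G162748), of the Rieske iron-sulfur proteins of electron transport chains, the level was 16.0, 10.1 and 10.9 FPKM in PbfRNAi, whereas the highest of the 9 other libraries had 0.0479 FPKM and 7 of them were listed at 0.

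Signalling and transport genes were among the smaller differences. SnrK1 (GRMZM2G107867), named for the energy-sensing SNF1-related kinases, had 22.2, 12.1 and 12.9 FPKM in PbfRNAi, 3.25, 4.22 and 4.27 FPKM in o2, 1.30, 7.82 and 6.71 FPKM in PbfRNAi;o2, and 4.81, 6.08 and 5.61 FPKM in WT. Replicate 1 was the highest of the PbfRNAi libraries and the lowest of each other genotype. GFT1 (GRMZM2G124863), whose namesake in Arabidopsis carries GDP-fucose into the Golgi, had 25.7, 28.5 and 29.2 FPKM in PbfRNAi, 12.5, 12.7 and 13.9 FPKM in o2, 9.86, 10.2 and 11.4 FPKM in PbfRNAi;o2, and 10.1, 12.5 and 12.1 FPKM in WT. PLC (GRMZM5G889467), named for phospholipase C, which cleaves membrane phosphoinositides, averaged 4.62 ± 0.864 FPKM in PbfRNAi, 1.73 ± 0.321 FPKM in o2, 1.79 ± 0.254 FPKM in PbfRNAi;o2 and 1.70 ± 0.352 FPKM in WT (SD, n = 3 each). For both genes the PbfRNAi mean was between 2 and 3 times that of every other genotype.

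Regulators of transcription made up the rest of the named members. ARF17 (GRMZM2G159399), an auxin response factor, had 9.71, 10.6 and 11.6 FPKM in PbfRNAi, 3.55, 2.27 and 1.91 FPKM in o2, 2.0, 2.82 and 3.18 FPKM in PbfRNAi;o2, and 5.07, 4.50 and 4.88 FPKM in WT. The homeobox gene knox7 (GRMZM2G433591), of the KNOTTED1-like family that regulates meristems and leaf form, had 12.1, 11.1 and 13.6 FPKM in PbfRNAi, 4.77, 5.08 and 4.61 FPKM in o2, 5.07, 4.27 and 4.56 FPKM in PbfRNAi;o2, and 3.68, 2.67 and 3.87 FPKM in WT. The WT libraries were second to PbfRNAi for ARF17 and the lowest of all for knox7. MYB94 (GRMZM2G139284), of the MYB family of DNA-binding proteins, had 3.97, 4.52 and 5.86 FPKM in PbfRNAi, 0.330, 0.368 and 0.348 FPKM in o2, 1.96, 0.407 and 0.389 FPKM in PbfRNAi;o2, and 0.182, 0.131 and 0.136 FPKM in WT. TIFY2/TIFY3 (GRMZM5G838098), of the family that holds the jasmonate ZIM-domain repressors, had 4.78, 7.80 and 8.72 FPKM in PbfRNAi, 1.04, 0.672 and 0.478 FPKM in o2, 4.59, 0.859 and 0.893 FPKM in PbfRNAi;o2, and 1.16, 1.33 and 1.34 FPKM in WT. In both MYB94 and TIFY2/TIFY3 the replicate 1 library of PbfRNAi;o2 stood above its other 2 libraries, and for TIFY2/TIFY3 it came close to the lowest PbfRNAi library.

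**Figure D2:**
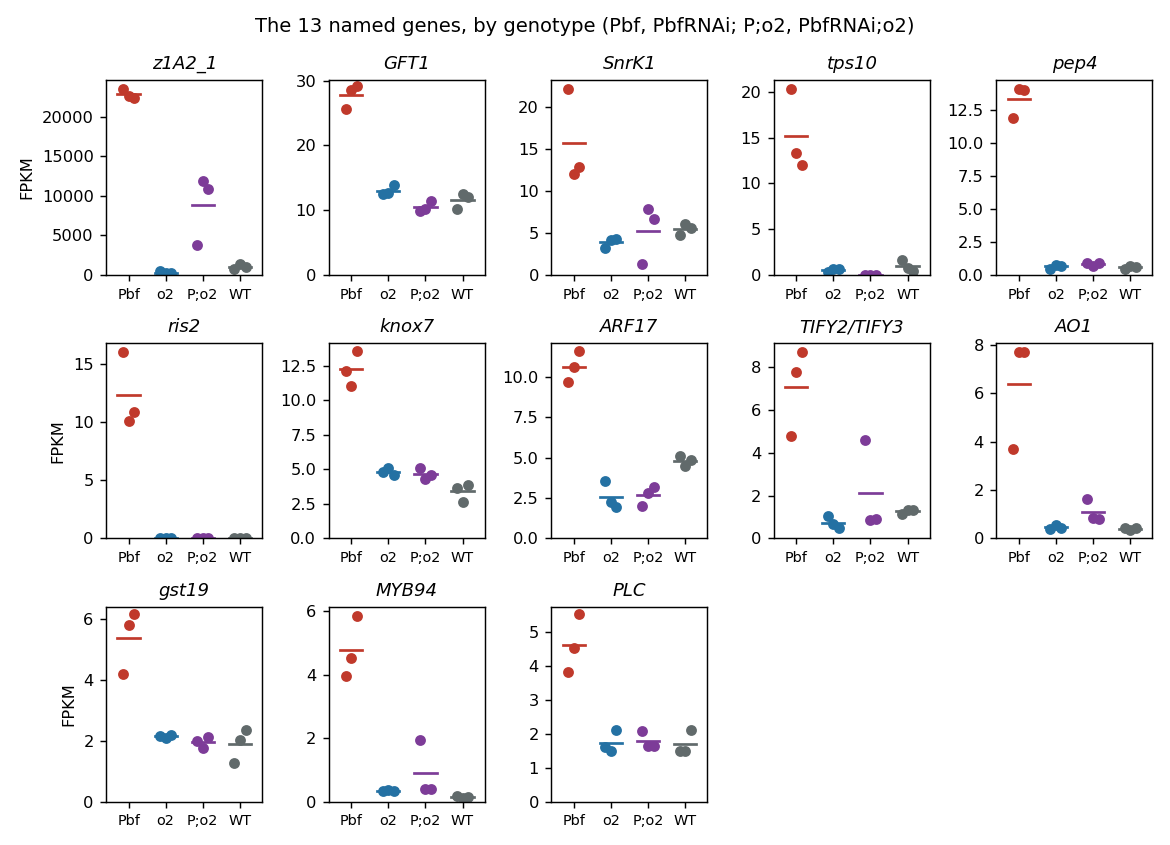
FPKM of the 13 named genes in each library (points) with the genotype mean (line), 1 panel per gene with its own axis from 0. PbfRNAi lies highest in every panel. PbfRNAi;o2 is second for z1A2_1, WT for ARF17, and the replicate 1 library of PbfRNAi;o2 stands apart for MYB94 and TIFY2/TIFY3.

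For 15 of the 110 genes the transcript was detected in PbfRNAi and hardly anywhere else: every PbfRNAi library had at least 2.03 FPKM, and every other library under 0.5 FPKM. ris2 was the 1 named gene among them. GRMZM2G013248 had 33.1, 30.03 and 36.0 FPKM in PbfRNAi, and was listed at 0 in the other libraries except for 0.0900 FPKM in WT replicate 2. GRMZM5G847020 had 25.9, 12.4 and 17.7 FPKM in PbfRNAi and was listed at 0 in 8 of the other 9 libraries, with 0.441 FPKM in o2 replicate 1. GRMZM2G102912 had 11.2, 11.7 and 14.0 FPKM in PbfRNAi and at most 0.0859 FPKM elsewhere, and GRMZM2G329532 had 6.95, 9.53 and 11.0 FPKM in PbfRNAi and at most 0.0669 FPKM elsewhere. Another 3 of the genes, GRMZM5G823318 (7.55, 6.66 and 7.24 FPKM in PbfRNAi), GRMZM2G149323 (6.86, 6.45 and 7.22 FPKM) and GRMZM2G055119 (5.25, 4.25 and 4.16 FPKM), were listed at 0 in all 9 libraries of o2, PbfRNAi;o2 and WT. GRMZM2G068259 came close to this pattern, with 16.7, 13.1 and 17.8 FPKM in PbfRNAi and at most 0.625 FPKM in any other library. None of the 110 was listed at 0 in a PbfRNAi library, as the rule requires.

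Over the whole table, 54 models were detected in PbfRNAi only by this limit (all 3 libraries at 1 FPKM or more, all 9 others under 0.5 FPKM), 12 in o2 only, 42 in PbfRNAi;o2 only and 3 in WT only. Conversely, 40 models were under 0.5 FPKM in all 3 PbfRNAi libraries and at 1 FPKM or more in the 9 others, against 15 for PbfRNAi;o2 and 5 each for o2 and WT. PbfRNAi thus had the most models of either kind. By the mirror image of the rule, 77 models were lower only in PbfRNAi.

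**Figure D3:**
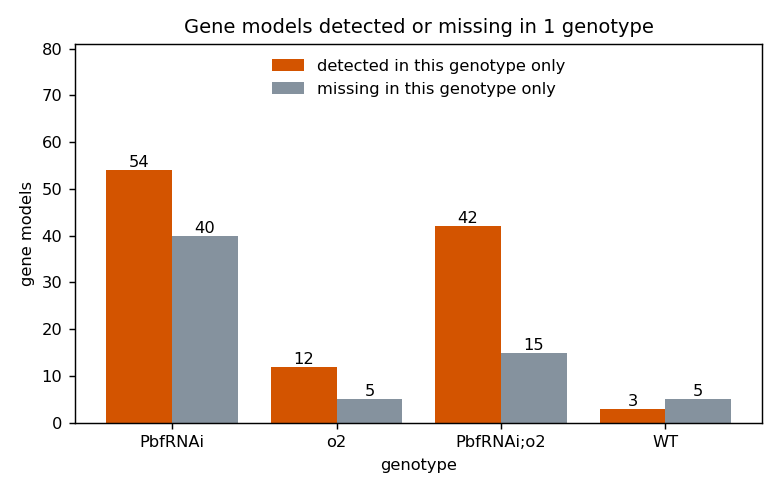
Number of gene models (vertical axis) detected in a single genotype (all 3 libraries at 1 FPKM or more, all 9 others under 0.5 FPKM) and missing in a single genotype (the converse), for each genotype. PbfRNAi has the highest bar of both kinds, 54 and 40 models, and 15 of the 54 are among the 110 genes.

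Below z1A2_1 the most abundant members carried no name in the reference table. AC199315.4_FG001 had 529, 332 and 337 FPKM in PbfRNAi, 113, 69.8 and 75.9 FPKM in o2, 102, 130 and 123 FPKM in PbfRNAi;o2, and 57.2, 61.1 and 58.0 FPKM in WT. GRMZM2G134980 had 276, 258 and 298 FPKM in PbfRNAi, 33.9, 35.9 and 37.2 FPKM in o2, 31.3, 26.8 and 26.7 FPKM in PbfRNAi;o2, and 29.6, 26.5 and 26.7 FPKM in WT. Its 9 libraries outside PbfRNAi lay between 26.5 and 37.2 FPKM, and its PbfRNAi mean was 7.78, 9.81 and 10.05 times that of o2, PbfRNAi;o2 and WT in that order. GRMZM2G060940 had 112, 127 and 176 FPKM in PbfRNAi, 19.8, 29.8 and 27.4 FPKM in o2, 10.3, 56.6 and 56.4 FPKM in PbfRNAi;o2, and 25.03, 49.4 and 47.5 FPKM in WT. In this gene replicate 1 was the lowest library of all 4 genotypes. GRMZM2G438301 also spread widely, with 90.7, 56.5 and 69.7 FPKM in PbfRNAi, 26.3, 16.2 and 14.3 FPKM in o2, 11.9, 39.3 and 52.3 FPKM in PbfRNAi;o2, and 22.7, 12.6 and 8.30 FPKM in WT. Its highest PbfRNAi;o2 library came close to its lowest PbfRNAi library. GRMZM2G066867 had 78.5, 63.4 and 66.8 FPKM in PbfRNAi, 14.4, 18.6 and 19.2 FPKM in o2, 37.3, 21.5 and 22.3 FPKM in PbfRNAi;o2, and 18.3, 12.2 and 11.2 FPKM in WT. GRMZM2G032222 had 62.3, 52.9 and 47.8 FPKM in PbfRNAi, and between 12.02 and 25.03 FPKM in the 9 other libraries.

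GRMZM2G386817 and GRMZM2G124026 are direct neighbours in the gene order. GRMZM2G386817 had 113, 200 and 273 FPKM in PbfRNAi, 34.7, 34.7 and 36.6 FPKM in o2, 42.9, 52.2 and 52.2 FPKM in PbfRNAi;o2, and 42.4, 47.3 and 55.1 FPKM in WT. GRMZM2G124026 had 36.9, 121 and 166 FPKM in PbfRNAi, 16.5, 13.6 and 16.3 FPKM in o2, 23.0, 27.1 and 28.9 FPKM in PbfRNAi;o2, and 16.1, 25.4 and 28.2 FPKM in WT. Both were lowest in replicate 1 and highest in replicate 3 of PbfRNAi. A second pair of neighbours differed in its resting level: GRMZM2G086904 averaged 145 ± 16.6 FPKM in PbfRNAi, 66.3 ± 7.46 FPKM in o2, 63.4 ± 5.99 FPKM in PbfRNAi;o2 and 52.7 ± 2.29 FPKM in WT (SD, n = 3 each), whereas GRMZM2G087165 had 12.96, 10.06 and 9.12 FPKM in PbfRNAi and was listed at 0 in the other libraries except for 0.193 FPKM in WT replicate 1.

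The rule did not use 3 contrasts: o2 against WT, which follows loss of O2, PbfRNAi;o2 against WT, which changes both factors, and PbfRNAi;o2 against o2, which adds the transgene where O2 is lost. They were tested with limma on log2(FPKM + 1) over 17058 genes with at least 1 FPKM in at least 3 libraries, with p-values adjusted by Benjamini-Hochberg over all of them and a threshold of 0.05. All 110 members passed that filter, but through their PbfRNAi libraries, and in the 9 others 82 of them reached it and 28 did not. Calls on the 28, which the PbfRNAi level alone brought into the test, are in the counts on FPKM as deposited but not in those with the filter set on the 9 other libraries, and these genes are described by their values. By the rule the members' levels in the other 3 genotypes all lie below those in PbfRNAi. The choice of members thus limits their shares of calls, which are given beside those of all genes as a description. The median of all genes tested lay at 0.41 (log2) in o2 against WT and at 0.48 in PbfRNAi;o2 against WT, and scaling the libraries by median of ratios took out shifts of 0.54 and 0.60. For PbfRNAi;o2 against o2 the median was 0.05 and the shift 0.07. Calls after scaling are therefore given beside the calls on FPKM as deposited for each contrast. Counts that join contrasts were made on FPKM as deposited only.

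In o2 against WT, 14 members were higher (12.7% of the 110, against 48.6% of all genes tested) and 20 were lower (18.2%, against 2.63%), while 76 did not pass. Their median difference was 0.02 (log2), and -0.18 after scaling. After scaling, 4 members were higher (against 8.2% of all genes) and 25 lower (against 8.89%), and all 4 and 20 of the 25 were among the calls on FPKM as deposited. In all 34 calls the o2 and WT libraries did not overlap, as in 96.1% of all genes called. With the filter set on the 9 libraries outside PbfRNAi, 13 were higher (against 49.9%) and 20 lower (against 2.64%). The 14 higher calls became 8 without o2 replicate 3 (against 36.8% of all genes) or WT replicate 2 (against 37.6%), and 9 without o2 replicate 2 (against 36.2%).

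Among the members higher in o2, 3 were close to undetected in WT. GRMZM2G008972 had 3.24, 3.09 and 2.97 FPKM in o2, against 0.0395, 0.0590 and 0.0736 FPKM in WT (limma adjusted p = 3.9e-07), with 17.3, 20.8 and 18.2 FPKM in PbfRNAi. GRMZM5G854138 had 3.15, 3.96 and 4.10 FPKM in o2, against 0.0471, 0.385 and 0.354 FPKM in WT (log2 fold change 1.91 ± 0.20 SE, limma adjusted p = 5.9e-05), with 5.47, 9.58 and 10.5 FPKM in PbfRNAi. GRMZM2G149289 had 1.43, 1.15 and 0.954 FPKM in o2, against 0.159, 0.0733 and 0.0187 FPKM in WT, and passed the filter through PbfRNAi alone. All 3 genes had at most 0.345 FPKM in the libraries that carry both changes. GRMZM2G008972 had 0, 0.0730 and 0.0826 FPKM in PbfRNAi;o2, lower than in o2 (limma adjusted p = 1.3e-07). GRMZM5G854138 had 0.345, 0.178 and 0.201 FPKM in PbfRNAi;o2, lower than in o2 by -1.93 ± 0.20 (log2, SE, limma adjusted p = 2.5e-05). GRMZM2G149289 had 0.0771, 0.0714 and 0.0588 FPKM in PbfRNAi;o2, below all 3 o2 libraries. For GRMZM2G008972 and GRMZM5G854138, PbfRNAi;o2 did not pass the test against WT (limma adjusted p = 0.95 and 0.96). GRMZM2G125527 was higher than in WT in both genotypes that lack O2. Its level was 5.28, 6.35 and 6.13 FPKM in o2 and 7.02, 6.36 and 8.28 FPKM in PbfRNAi;o2, against 3.16, 2.42 and 2.28 FPKM in WT, a log2 fold change of 0.94 ± 0.18 in o2 (limma adjusted p = 0.0012) and 1.18 ± 0.18 in PbfRNAi;o2 (limma adjusted p = 0.00014).

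The larger decreases in o2 reached GRMZM5G828987, GRMZM2G137964 and z1A2_1. GRMZM5G828987 had 2.12, 0.599 and 0.872 FPKM in o2, against 7.60, 11.7 and 11.7 FPKM in WT (log2 fold change -2.40 ± 0.32 SE, limma adjusted p = 0.0002), with 17.8, 24.7 and 24.6 FPKM in PbfRNAi. GRMZM2G137964 had 0.730, 0.101 and 0.119 FPKM in o2, against 3.30, 5.09 and 4.63 FPKM in WT (log2 fold change -2.04 ± 0.40 SE, limma adjusted p = 0.0018). The o2 mean of z1A2_1 was 0.284 times that of WT (log2 fold change -1.87 ± 0.41 SE, limma adjusted p = 0.0031). GRMZM2G043887, with 67.4, 58.3 and 58.1 FPKM in PbfRNAi, had 3.13, 4.93 and 4.25 FPKM in o2, against 10.8, 12.9 and 13.4 FPKM in WT (log2 fold change -1.40 ± 0.19 SE, limma adjusted p = 0.00023). These genes had levels in the order PbfRNAi, WT, o2, or, for z1A2_1, with PbfRNAi;o2 second.

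In PbfRNAi;o2 against WT, 19 members were higher (17.3%, against 55.4% of all genes tested) and 13 lower (11.8%, against 4.75%), while 78 did not pass. The median difference was 0.06 (log2), and -0.12 after scaling. After scaling 7 were higher (against 18.5%) and 27 lower (against 17.6%), which included all 13 calls on FPKM as deposited. Restricting the filter to the 9 libraries outside PbfRNAi gave 14 higher (against 56.3%) and 12 lower (against 4.76%).

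ARF17 and 8 other members were lower than WT in both genotypes that lack O2, 9 in all (8.18%, against 1.2% of all genes tested). This joint count was not repeated after scaling. Scaling raised the share of all genes lower than WT to 8.89% in o2 and 17.6% in PbfRNAi;o2, so the 1.2% holds for the deposited scale only. The log2 fold change of ARF17 was -0.73 ± 0.17 in o2 (SE, limma adjusted p = 0.0048) and -0.68 ± 0.17 in PbfRNAi;o2 (SE, limma adjusted p = 0.0052). GRMZM2G088469 had 3.31, 8.92 and 11.4 FPKM in PbfRNAi, 0.322, 0.262 and 0.0746 FPKM in o2, 0.0640, 0.0589 and 0 FPKM in PbfRNAi;o2, and 1.48, 2.44 and 2.10 FPKM in WT. It was lower than WT by -1.29 ± 0.30 in o2 (log2, SE, limma adjusted p = 0.0044) and by -1.52 ± 0.30 in PbfRNAi;o2 (limma adjusted p = 0.0011). GRMZM2G108076 and GRMZM2G001898, which match the same reference gene and so may not be separate loci, both followed this order. GRMZM2G108076 had 49.1, 35.6 and 37.9 FPKM in PbfRNAi, 7.78, 6.75 and 6.68 FPKM in o2, 3.70, 7.23 and 7.63 FPKM in PbfRNAi;o2, and 15.3, 16.1 and 17.2 FPKM in WT, and showed log2 fold changes of -1.09 ± 0.20 in o2 (limma adjusted p = 0.0013) and -1.31 ± 0.20 in PbfRNAi;o2 (limma adjusted p = 0.0002). GRMZM2G001898 had 78.4, 67.2 and 66.0 FPKM in PbfRNAi, 22.4, 17.0 and 16.1 FPKM in o2, 10.4, 21.7 and 20.5 FPKM in PbfRNAi;o2, and 29.6, 36.0 and 36.7 FPKM in WT.

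Among the named members that passed the filter outside PbfRNAi, knox7 was higher in PbfRNAi;o2 than in WT, and lost the call under other settings. For knox7 the log2 fold change was 0.36 ± 0.13 (SE, limma adjusted p = 0.032), and after scaling -0.12 (limma adjusted p = 0.47). The abundant AC199315.4_FG001 was higher in PbfRNAi;o2 than in WT by 0.99 ± 0.20 (log2, SE, limma adjusted p = 0.0014), and after scaling by 0.39 (limma adjusted p = 0.21).

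In PbfRNAi;o2 against o2, 11 members were higher (10%, against 14.4% of all genes tested) and 7 lower (6.36%, against 7.84%), while 92 did not pass. After scaling, 9 were higher (against 12.2%) and 8 lower (against 10.5%), and the filter on the 9 libraries outside PbfRNAi gave 9 (against 14.4%) and 6 (against 7.96%). Without PbfRNAi;o2 replicate 1 the 11 higher calls became 19 (against 13.1%). On log2(FPKM + 1), which understates differences of low genes, the difference was under 1 in size for 97 of the members. By mean FPKM, 33 members differed by 2-fold or more either way. Neither count was made over all genes.

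Against both WT and o2, 5 members were higher in PbfRNAi;o2 (4.55%, against 13.1% of all genes tested). With the filter on the 9 libraries outside PbfRNAi it was 3 of 82 (3.66%, against 13.1%). z1A2_1 had a log2 fold change of 4.82 ± 0.41 against o2 (SE, limma adjusted p = 5.4e-06, 29.9 times the mean FPKM) and of 2.95 ± 0.41 against WT (limma adjusted p = 9.8e-05, 8.50 times). GRMZM2G002396 had 8.51, 9.37 and 10.4 FPKM in PbfRNAi, 0.165, 0.0890 and 0.0667 FPKM in o2, 2.003, 4.84 and 4.51 FPKM in PbfRNAi;o2, and 0.251, 0.320 and 0.330 FPKM in WT. Its log2 fold change in PbfRNAi;o2 was 2.05 ± 0.21 against o2 (SE, limma adjusted p = 1.9e-05) and 1.82 ± 0.21 against WT (limma adjusted p = 2.2e-05). GRMZM2G022979 had 7.21, 9.83 and 8.94 FPKM in PbfRNAi and 0.694, 1.996 and 3.10 FPKM in PbfRNAi;o2, and was listed at 0 in all o2 and WT libraries. GRMZM2G161019 had 12.2, 6.66 and 8.15 FPKM in PbfRNAi, 1.68, 1.45 and 1.56 FPKM in o2, 3.34, 4.80 and 4.40 FPKM in PbfRNAi;o2, and 1.58, 1.59 and 1.51 FPKM in WT (limma adjusted p = 0.0016 against o2 and 0.00053 against WT). In each of these genes PbfRNAi;o2 lay between PbfRNAi and the other genotypes with no overlap. The fifth gene, GRMZM2G700192, had 0.282, 1.95 and 1.70 FPKM in PbfRNAi;o2, against 0, 0.0683 and 0 FPKM in o2 and 0, 0.175 and 0.151 FPKM in WT. It and GRMZM2G022979 are the 2 that passed the filter through PbfRNAi alone.

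GRMZM2G173483 and GRMZM2G043887 were lower in o2 than in WT and higher in PbfRNAi;o2 than in o2. GRMZM2G173483 had 13.3, 10.3 and 13.1 FPKM in PbfRNAi, 1.98, 0.953 and 1.12 FPKM in o2, 5.34, 4.74 and 4.27 FPKM in PbfRNAi;o2, and 3.46, 4.07 and 4.07 FPKM in WT. Its log2 fold change was 1.32 ± 0.17 in PbfRNAi;o2 against o2 (SE, limma adjusted p = 0.00011) and -1.07 ± 0.17 in o2 against WT (limma adjusted p = 0.00044). GRMZM2G043887, with 13.3, 7.86 and 7.69 FPKM in PbfRNAi;o2, was higher there than in o2 by 1.03 ± 0.19 (log2, SE, limma adjusted p = 0.0021), and by 0.65 without the 4 replicate 1 libraries. In the other direction, GRMZM2G048175 had 0.924, 0.851 and 0.598 FPKM in PbfRNAi;o2, against 2.08, 2.09 and 2.41 FPKM in o2 and 1.67, 3.16 and 3.21 FPKM in WT. It was lower in PbfRNAi;o2 than in o2 by -0.84 ± 0.19 (log2, SE, limma adjusted p = 0.0084) and lower than in WT by -1.01 ± 0.19 (limma adjusted p = 0.00084). Together, 53 members passed in at least 1 of the 3 contrasts (48.2%, against 72.7% of all genes tested). With the filter on the 9 libraries outside PbfRNAi it was 46 of 82 (56.1%, against 73.8%). The rule holds the members below PbfRNAi in all 3 genotypes compared, so a smaller share than that of all genes is not a result about them.

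**Figure D4:**
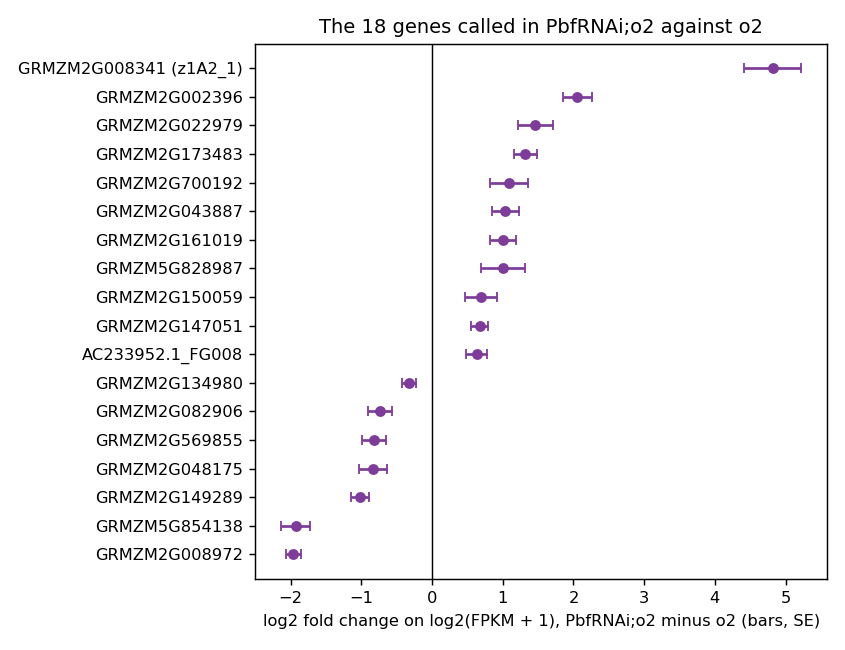
Log2 fold change of PbfRNAi;o2 over o2 on the log2(FPKM + 1) scale (horizontal axis, with bars for the SE) for the 18 of the 110 genes that passed limma at an adjusted p of 0.05. GRMZM2G022979, GRMZM2G700192 and GRMZM2G149289 passed the filter through PbfRNAi alone. The 11 genes right of 0 are led by z1A2_1 at 4.82, and the 7 left of it end with GRMZM2G008972 at -1.96.

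Because replicate 1 stood apart in every genotype, the counts were repeated without those 4 libraries. With 2 libraries per genotype, 31 members were higher and 27 lower in o2 than in WT (against 69.9% and 5.74% of all genes), and 31 were higher and 19 lower in PbfRNAi;o2 than in WT (against 66.2% and 8.22%). In PbfRNAi;o2 against o2, 33 were higher and 20 lower (against 23.2% and 26.3%). With the replicate number added as a block instead, 18 members were higher and 20 lower in o2 than in WT (against 56.8% and 3.56%), 23 and 14 in PbfRNAi;o2 than in WT (against 60.8% and 5.79%), and 14 and 10 in PbfRNAi;o2 than in o2 (against 19.3% and 11.1%). The rule itself found 125 models without the replicate 1 libraries.

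The members were not spread evenly along the gene order. Of the 110, 79 are in the reference table, and 78 match a single reference gene. Cutting the order of the 12065 matched tested genes into 127 runs of up to 100 genes left 88 runs with none of the 78. The 10 runs with 3 or more held 42 of them (53.8%), beside 8.29% of the tested genes and 11 of 50 (22.0%) of the models lower only in PbfRNAi. The 2 fullest runs adjoin and held 13 members (16.7% of the 78, beside 1.66% of the tested genes), among them ARF17, GFT1, GRMZM2G134980, GRMZM2G060940, GRMZM2G066867, GRMZM2G149289, GRMZM5G823318 and the neighbours GRMZM2G087165 and GRMZM2G086904. The runs were picked after the members were known, so these shares are a description. In all, 11 members lay within 5 genes of another and 4 directly beside one. As the background of the lines is not given, a shared region and loss of PBF cannot be told apart for these genes.

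**Figure D5:**
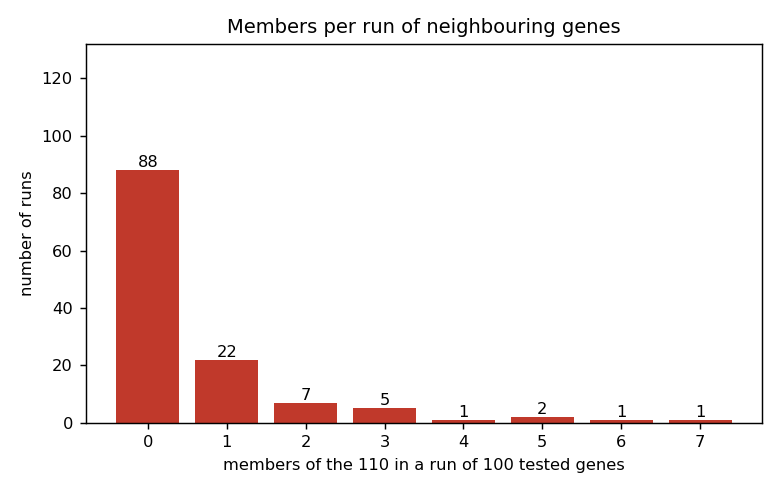
Number of runs (vertical axis) by how many of the 78 matched genes a run of up to 100 neighbouring tested genes holds (horizontal axis). Most runs, 88 of 127, hold none, and the 2 fullest hold 6 and 7.

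The pathway lists set around the members were counted in PbfRNAi against WT, where 18.2% of all genes tested were higher and 5.16% lower (11.6% and 9.65% after scaling). Over all lists 53 genes were higher and 18 lower. The 53 include the members z1A2_1 and gst19, whose higher level the rule required, so their calls are not a test result. The other totals over all lists, here and in the closing section, do not leave members out either. With the replicate number as a block the counts were 65 and 23 (against 24.2% and 6.82% of all genes), and without the 4 replicate 1 libraries 98 and 39 (against 39.3% and 10.1%). Among the 24 zein models tested other than z1A2_1, 1 was higher and 6 lower, before and after scaling alike. The 1 higher was gz27, listed at 0 in all WT libraries, with 6687 ± 548 FPKM in PbfRNAi and 15423 ± 13365 FPKM in o2 (SD, n = 3 each). Whether that 0 is a true level or a missing value cannot be told from FPKM, so the call is uncertain. Of the zeins not called, z1C2 (9226 ± 15980 FPKM), z1A1_3/z1A1_4 (3779 ± 6546 FPKM) and z1A2_2 (15498 ± 13441 FPKM) also spread widely in WT (SD, n = 3 each). The 6 lower were the gamma zein gz50 and the alpha zeins z1A2_3, z1C1_1, z1C1_6, z1C1_11 and z1C1_12. z1A2_3 (GRMZM2G026939), of the same subfamily as z1A2_1, averaged 1087 FPKM in PbfRNAi and 3643 FPKM in WT (log2 fold change -1.74 ± 0.55, limma adjusted p = 0.041). z1A2_2 (GRMZM2G008913), also of that subfamily, averaged 20490 FPKM in PbfRNAi and 15498 FPKM in WT and was not called (limma adjusted p = 0.36). The most reduced of the 6, z1C1_12 (GRMZM2G088365), averaged 5.48 FPKM in PbfRNAi and 1927 FPKM in WT (log2 fold change -8.12 ± 0.30 SE, limma adjusted p = 6.9e-09).

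Of the 22 genes for oxidative stress and detoxification tested other than gst19, 3 were higher and 5 lower in PbfRNAi than in WT (1 and 6 after scaling). The glutathione transferase GST3 (GRMZM2G146246), averaged 3.96 FPKM in PbfRNAi and 1.29 FPKM in WT (log2 fold change 1.10 ± 0.19 SE, limma adjusted p = 0.0011). The ascorbate peroxidase apx2 (GRMZM2G140667), which removes hydrogen peroxide, averaged 19.8 FPKM in PbfRNAi and 43.7 FPKM in WT (log2 fold change -1.11 ± 0.12 SE, limma adjusted p = 3.7e-05). None of the other lists held a member. For endoplasmic reticulum folding and the unfolded protein response, 9 of 23 genes tested were higher and 4 lower, before and after scaling alike. Cytosolic ribosomal proteins had 20 of 29 higher and 0 lower (11 and 0 after scaling). Starch and sucrose genes had 5 of 22 higher and 1 lower (3 and 1 after scaling), heat shock proteins 2 of 26 and 1 (1 and 1), and defence genes and inhibitors 4 of 14 and 0 (1 and 1). The remaining lists, cell wall, cell cycle and histones, amino acid and nitrogen, transport and late embryogenesis, had at most 3 genes higher and at most 1 lower, or 3 lower after scaling.

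Families of the named regulators were counted too, on lists made after the names were known and without the members. Of 14 other auxin response factor genes tested, 3 were higher and 1 lower in PbfRNAi than in WT (3 and 3 after scaling). ARF18 (GRMZM2G035405) had the pattern of the members below their level limit, with 3.31 ± 0.311 FPKM in PbfRNAi, 0.820 ± 0.00679 FPKM in o2, 1.20 ± 0.291 FPKM in PbfRNAi;o2 and 0.756 ± 0.198 FPKM in WT (SD, n = 3 each). Other TIFY genes had 2 of 15 higher and 0 lower (2 and 1 of 14 after scaling). TIFY30 (GRMZM2G143402) averaged 28.8 ± 3.57 FPKM in PbfRNAi and 10.1 ± 0.553 FPKM in WT (SD, n = 3 each, log2 fold change 1.42 ± 0.11 SE, limma adjusted p = 2.4e-06). With 14.6 ± 0.839 FPKM in o2 and 14.3 ± 1.02 FPKM in PbfRNAi;o2 it stayed outside the rule. Of the 2 other KNOX genes tested, lg3 (GRMZM2G087741), named for a liguleless leaf mutant, was lower, at 0.902 ± 0.387 FPKM in PbfRNAi against 7.50 ± 2.83 FPKM in WT (SD, n = 3 each, log2 fold change -2.12 ± 0.23 SE, limma adjusted p = 3.7e-05). Of 11 other MYB genes, 0 were higher and 1 lower (0 and 2 of 12 after scaling). The phosphoenolpyruvate carboxylase gene pep7 (GRMZM2G069542) averaged 41.3 ± 1.82 FPKM in PbfRNAi and 37.1 ± 3.39 FPKM in WT (SD, n = 3 each, limma adjusted p = 0.44).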

How the data were processed

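Total RNA from 16-day endosperm was purified with TRIzol and RNeasy, depleted with Ribo-Zero and sequenced as paired 125 nt reads on an Illumina instrument, per the labels' protocols. The submitters' processing notes name the tools Cufflinks, Bowtie2, TopHat and FastQC and the genome build B73 RefGen v3, without tool versions. The authors deposited 1 table of FPKM values, so the read depth of each library is unknown. The FPKM of a library summed to between 430405 and 519817. FPKM is relative to the library, so a few very abundant genes shift all others.

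Values were taken as log2(FPKM + 1) of the deposited FPKM and fitted with limma 3.58.1 (R 4.3.3), with 4 genotype means over 12 libraries, moderated variances with a trend and robust estimation, for 17058 genes at 1 FPKM or more in at least 3 libraries. Tests were two-sided, with Benjamini-Hochberg adjustment over all genes in each contrast. Fold changes on this scale understate those of low genes. Python 3.11.15, pandas 2.3.3, numpy 2.4.6 and matplotlib 3.10.9 served for the rest. The fit was tested on simulated data.

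The members and lists were chosen with earlier results of these data known. Members named are the 12 most abundant, the 10 with the largest ratio, those with a gene name or in a list, the 5 largest changes each way per contrast, those nearest the limit and up to 6 with a near neighbour. Examples among these and genes outside them were picked after their values were seen. A member with a 0 and a value of 20 or more is given by its values alone. Gene names and order come from a RefSeq table of Zm-B73-REFERENCE-NAM 5.0, another build, so no coordinates are given. Same-numbered libraries of different genotypes deviated together in all 18 pairs (r = 0.180 to 0.501 across genes), so the number was tried as a block. Other scalings, pseudocounts, filters and left-out libraries were tried too.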

Additional observations from a re-analysis of the deposited data

How the results depend on the processing

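The limits lie in depth, which FPKM does not show, in 3 libraries per genotype, and in the scaling of FPKM. The number of members was 110, 54 with a fold of at least 3, 163 after median-of-ratios scaling, 125 without the 4 replicate 1 libraries, 104 and 112 with offsets of 0.1 and 1, and 101 to 121 with a library left out. Median-of-ratios scaling, with or without the 100 most abundant genes, changed the members higher in o2 than in WT to 4 (from 14 on the deposited scale), those higher in PbfRNAi;o2 than in WT to 7 (19) and those lower to 27 (13), and the genes of the pathway lists higher in PbfRNAi than in WT to 33 (53). It turned the sign of o2 against WT for GRMZM2G086904 (log2 fold change -0.21), GRMZM2G134980 (-0.16) and knox7 (GRMZM2G433591, -0.019), and of PbfRNAi;o2 against WT for knox7 (-0.12). Without the 4 replicate 1 libraries the members higher and lower were 31 and 27 in o2 against WT, 31 and 19 in PbfRNAi;o2 against WT and 33 and 20 in PbfRNAi;o2 against o2, and the list genes 98 and 39; the cause was not tested. Leaving out 1 library at a time gave 8 to 20 members higher and 15 to 21 lower in o2 against WT, 13 to 22 and 11 to 16 in PbfRNAi;o2 against WT, 8 to 19 and 6 to 9 in PbfRNAi;o2 against o2, and 37 to 60 and 13 to 21 list genes. The shares of all genes tested moved too, from 36.2% to 52.9% higher and 1.88% to 3.2% lower in o2 against WT. They were 47.3% to 57.3% and 3.77% to 5.53% in PbfRNAi;o2 against WT, and 9.95% to 16.4% and 4.54% to 9.66% in PbfRNAi;o2 against o2. In PbfRNAi against WT they were 11.8% to 21.2% and 3.58% to 6.18%. With the replicate block the members higher and lower were 18 and 20, 23 and 14, and 14 and 10 in those 3 contrasts, the list genes 65 and 23, and all 53 calls on named members were kept. Of these 53, 40 kept their direction and threshold under every setting that gave them a value, out of 20, and 13 did not under at least 1. The named members include those with the 5 largest changes each way per contrast. The number kept therefore does not measure how stable calls on the members are in general. The filter on the 9 libraries outside PbfRNAi gave a value for 44 of them, the fits of only the 2 genotypes compared for 43, and those without the replicate 1 libraries for 50. The calls outside the 44 are on members that passed the filter through PbfRNAi alone. The filter on the 9 libraries outside PbfRNAi was chosen after seeing the data.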
